A study of Mus musculus with 4 samples.

Results

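Genes of glucose breakdown were described in mouse embryonic stem (ES) cells with and without Chd1, an enzyme that uses ATP to move nucleosomes in transcribed chromatin. They comprise glucose and lactate carriers, the enzymes of glycolysis and of the pentose phosphate pathway, lactate dehydrogenases, and the pyruvate dehydrogenase complex with its kinases. They were chosen by gene symbol. Of 38 symbols, 37 were found in both deposited tables, among 11728 genes named in both. Pkm and Pkm2 are names of 1 gene, and the tables hold it as Pkm. Of the 37 genes, 35 reached a mean of 1 FPKM over the 4 libraries and were tested together with all 10261 genes that did. FPKM is a fragment number scaled to transcript length and sequencing depth. Eno2 and Pfkfb4 stayed under that level.

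All cells carried Rosa26CreER, a tamoxifen-dependent Cre recombinase, and were Chd1fl/-, with 1 conditional and 1 null Chd1 allele. Control cells received ethanol and keep the conditional allele. Chd1-/- cells received 1 µM tamoxifen for 48 to 72 h and were then grown for 3 to 5 passages without it, so tamoxifen exposure and the loss of Chd1 cannot be told apart. Both were grown with serum and LIF in a high-glucose medium that also held pyruvate. Per the labels' protocols the cells came from 2 independently derived lines, and total RNA was taken from equal numbers of viable cells with 92 ERCC spike-in transcripts added. The 4 libraries fall into set 1 and set 2. A set pairs a control with a Chd1-/- library, so n = 2 per group. Which line a set came from is not labelled, so p-values measure only the spread between these sets.

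Glycolysis splits glucose into pyruvate with a small yield of ATP, and lactate dehydrogenase turns pyruvate into lactate, which monocarboxylate transporters export. The pentose phosphate pathway branches off at glucose 6-phosphate and makes NADPH and ribose for nucleotides, and pyruvate dehydrogenase carries pyruvate into the mitochondrial citric acid cycle. Fast-dividing pluripotent cells are known for a high rate of glycolysis with lactate release. HIF-1 and Myc family proteins are known activators of many of these genes. HIF-1 binds the core letters ACGTG or GCGTG, and Myc proteins bind the E-box CACGTG.

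Promoters are shown for 3 members that fell (Pgk1, Gapdh and Hk2) and for 1 whose mean level hardly moved (Tpi1), each with a single start in the table. The runs are the 250 bases before the RefSeq start, 5′ to 3′ along the gene, on build GRCm38.p6. Capitals mark ACGTG or GCGTG on either strand.
Pgk1, chrX:106186850-106187099 (plus strand): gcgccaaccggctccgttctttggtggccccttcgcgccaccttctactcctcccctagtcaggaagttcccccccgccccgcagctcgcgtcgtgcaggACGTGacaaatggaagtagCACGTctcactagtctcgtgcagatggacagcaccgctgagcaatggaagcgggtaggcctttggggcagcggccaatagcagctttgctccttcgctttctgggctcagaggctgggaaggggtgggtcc
Gapdh, chr6:125165774-125166023 (minus strand): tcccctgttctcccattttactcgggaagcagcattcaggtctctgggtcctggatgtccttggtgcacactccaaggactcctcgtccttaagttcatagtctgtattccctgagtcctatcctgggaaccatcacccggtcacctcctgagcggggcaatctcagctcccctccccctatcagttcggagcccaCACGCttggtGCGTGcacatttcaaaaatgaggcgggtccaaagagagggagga
Hk2, chr6:82774455-82774704 (minus strand): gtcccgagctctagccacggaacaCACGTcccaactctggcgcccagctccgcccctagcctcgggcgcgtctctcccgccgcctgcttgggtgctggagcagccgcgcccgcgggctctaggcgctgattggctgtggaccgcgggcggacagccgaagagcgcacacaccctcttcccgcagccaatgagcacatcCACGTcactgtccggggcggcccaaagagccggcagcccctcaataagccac
Tpi1, chr6:124814159-124814408 (minus strand): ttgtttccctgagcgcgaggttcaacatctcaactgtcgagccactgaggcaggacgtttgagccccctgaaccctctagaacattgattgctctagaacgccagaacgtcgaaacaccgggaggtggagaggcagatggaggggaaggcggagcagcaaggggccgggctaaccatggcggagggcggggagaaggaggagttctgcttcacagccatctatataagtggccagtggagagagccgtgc
Pgk1, Gapdh and Hk2 each held 2 such matches and Tpi1 held 0, and none of the 4 held CACGTG. Over the 36 members with an entry there were 50 starts, of which 78.0% held ACGTG or GCGTG in the 250 bases, against 58.1% of 9959 starts of tested genes and 38.6% of all 32851. The median GC content was 60.4% for the members' windows, 60.4% for those of tested genes and 52.4% over all. Counted by gene and not by start, 86.1% of the 36 members held ACGTG or GCGTG, against 64.3% of 7780 tested genes with an entry. Of the 27 members with an entry that were not called lower, 22 held ACGTG or GCGTG, so Tpi1 is not typical of them. Eno2 and Pfkfb4, which were not tested, are among these 27. All 9 that were called lower, Ldhd among them, held ACGTG or GCGTG. The E-box, which contains ACGTG, was in 10.0% of the members' windows and 8.67% of those of tested genes. These are letter matches, not bound sites.

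Chd1 itself had 27.6 FPKM in control 1 and 5.71 in Chd1-/- 1, and 17.9 in control 2 and 8.52 in Chd1-/- 2. FPKM summed over all loci ranged from 466994 to 719549, and read depth is unknown because FPKM carries none. The median tested gene was at 72.3% of control in set 1 and at 79.4% in set 2. All 8 pluripotent ES cell markers listed (such as Pou5f1, Sox2 and Nanog) were present. Their summed levels were 2710 and 3434 FPKM in the controls and 1999 and 1907 FPKM in the Chd1-/- libraries. In limma's test 7 of the 8 fell, beside 9.8% of all tested genes. The marker that did not pass was Pou5f1 (log2 fold change -0.33, limma adjusted p = 0.200). Of 8 fibroblast and feeder markers, 6 were in both tables. They summed to 10.6 and 46.7 FPKM in the controls and 14.8 and 18.9 FPKM in the Chd1-/- libraries. Most of each sum was Acta2, at 7.93 and 38.4 FPKM in the controls and 12.1 and 14.4 FPKM in the Chd1-/- libraries. Of 6 primitive endoderm markers 2 were in both tables, with sums of at most 1.31 FPKM. Sox17, Sox7 and Foxa2 named no locus in either table, and Gata6 was in 1 table only or shared by several loci. Of 4 trophectoderm markers 3 were in both tables, at 9.27 and 3.03 FPKM in the controls and 4.10 and 2.91 FPKM in the Chd1-/- libraries. The 4 neural markers summed to 47.8 and 33.5 FPKM in the controls and to 30.3 and 27.0 FPKM in the Chd1-/- libraries, but did not move together. Tubb3 fell (log2 fold change -1.02, limma adjusted p = 0.00042). Nes was higher in both sets, at 11.9 and 14.0 FPKM in set 1 and 9.37 and 12.2 FPKM in set 2, control first. It did not pass (log2 fold change 0.31, limma adjusted p = 0.384). Map2 and Sox1 were lower in set 1 and higher in set 2. The part of other cell types in the results below was not tested.

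The summed FPKM of these genes was lower in the Chd1-/- libraries, and so was that of all loci together. These sums, and the calls on the values as deposited, rest on the authors' scaling. Whether the ERCC transcripts entered it is not stated. The 37 genes summed to 10488 FPKM in control 1 and 7850 in Chd1-/- 1, which is 74.8% of control, and to 10846 in control 2 and 8314 in Chd1-/- 2, which is 76.7%. Over all loci the sums stood at 79.9% and 72.0%. The members made up 1.79% and 1.51% of all FPKM in the controls and 1.68% and 1.60% in the Chd1-/- libraries. In bulk RNA, fewer cells of a type and less RNA per cell cannot be told apart.

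Of the 35 tested members 26 were lower in both sets (74.3%, against 72.4% of all tested genes), 2 were higher in both and 7 moved in opposite directions. With set as a block, 10 fell and 0 rose by limma's test (adjusted p under 0.05, Benjamini-Hochberg over all genes). Those that fell were Slc2a3, Hk2, Pfkp, Aldoc, Gapdh, Pgk1, Eno1, Ldha, Pgd and Ldhd. Over all tested genes 9.8% were called lower and 0.0682% higher. Highly expressed genes were called more often, and many members are highly expressed. Of 663 genes with a mean of at least 100 FPKM 19.8% were called lower, and of the 15 members at that level 5 were. At 10 FPKM and above the background was 15.9%, and 8 of 30 members were called. These 2 level limits were chosen after values were seen.

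The calls rest on the form of the test. It has 1 residual degree of freedom and takes its error from a spread shared by genes of similar level. With a variance common to all levels, or without the block, limma called 0 of the 35 members (7 and 10 were lower at an unadjusted p under 0.05, against 17 in the test used) and 0 of all genes. Leaving out any 1 library, which also removes the block, gave 0 as well. With only the genes of at least 5 FPKM tested, 4 members fell (Slc2a3, Pfkp, Aldoc and Gapdh).

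The locus called Ldhd had a different place in the 2 tables. Ldhd, which encodes the mitochondrial D-lactate dehydrogenase, is annotated on the minus strand of chromosome 8 in GENCODE M21. In set 1 the 10 nearest named loci by locus number were all minus-strand genes. In set 2 the 10 nearest were all plus-strand genes. Most neighbours lay on the other strand for 1.09% of the named loci of that table. No other member had most of its neighbours on the other strand in either set. Its values were 0.683 FPKM in control 1, 0.194 in Chd1-/- 1, 26.6 in control 2 and 4.54 in Chd1-/- 2. The controls thus differ 39.0-fold between sets, against 0.366 to 1.82-fold for the other members. Although Ldhd had the largest change among the members (log2 fold change -1.97, limma SE 0.51, adjusted p = 0.0045), its values were not read as those of 1 transcript. In fits without the block its log2 fold change ran from -4.52 without control 1 to 0.58 without control 2. Without Ldhd, 9 of 34 members fell.

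**Figure D1:**
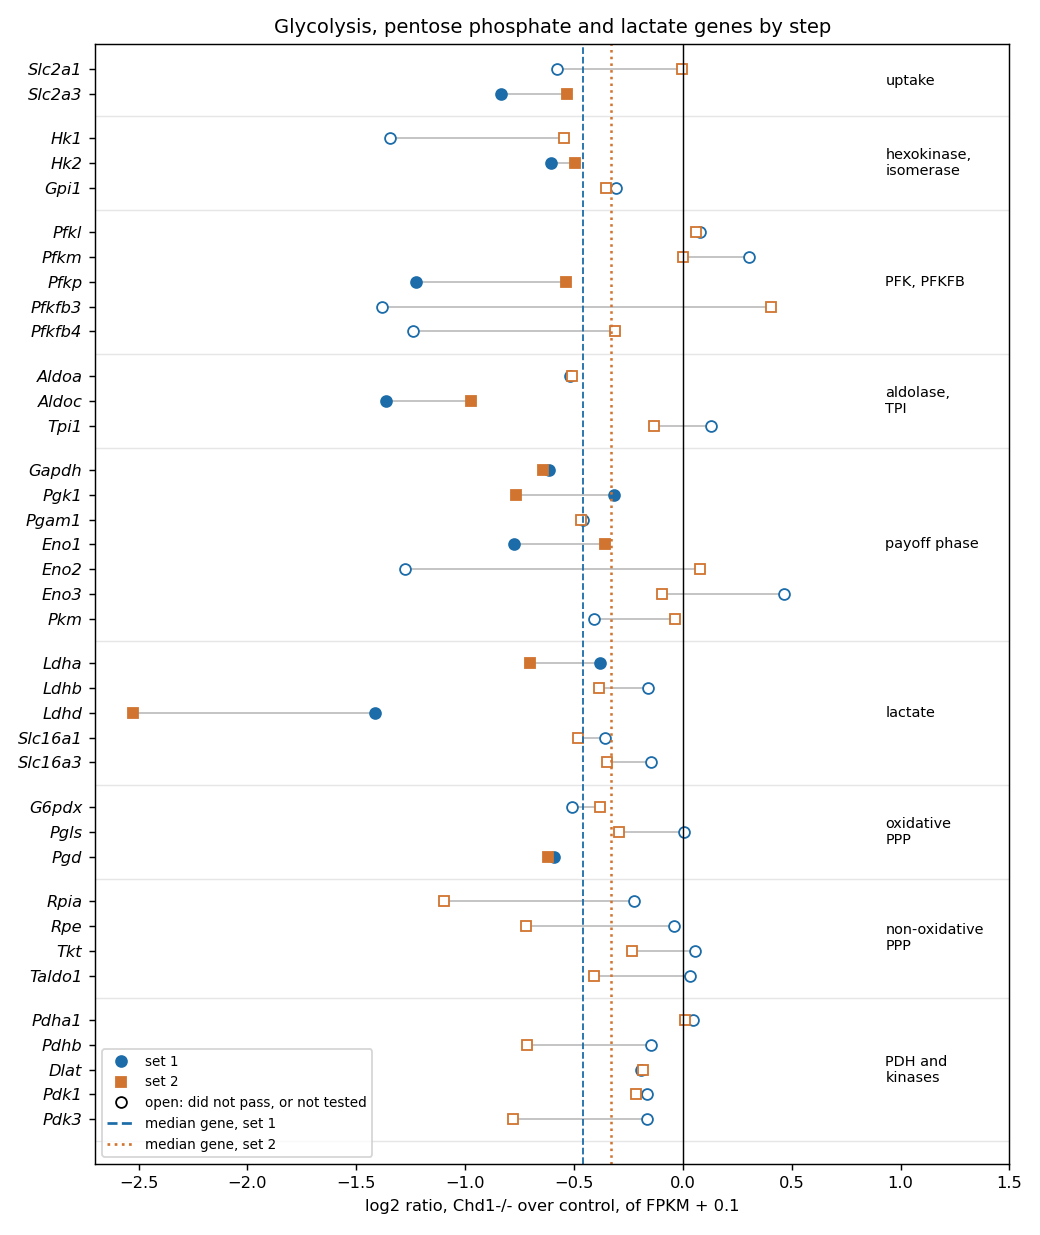
The horizontal axis is the log2 ratio of Chd1-/- over control, of FPKM + 0.1, for each of the 37 genes by pathway step (PFK, phosphofructokinase; PFKFB, 6-phosphofructo-2-kinase/fructose-2,6-bisphosphatase; TPI, triose phosphate isomerase; PPP, pentose phosphate pathway; PDH, pyruvate dehydrogenase). Circles are set 1 and squares set 2, filled for the 10 genes that fell in limma's test, and the dashed and dotted lines mark the median tested gene (-0.46 and -0.33). Most points lie left of 0 and scatter around the median lines, with Pfkl and Pdha1 to the right of 0 in both sets.

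Glucose enters ES cells through the facilitative transporters Slc2a1 (GLUT1) and Slc2a3 (GLUT3, a carrier of high affinity). Slc2a3 had 440 FPKM in control 1 and 247 in Chd1-/- 1, and 368 in control 2 and 255 in Chd1-/- 2. Both Chd1-/- values lie below both controls, and Slc2a3 fell (log2 fold change -0.68, limma SE 0.17, n = 2 pairs, adjusted p = 0.0038). Slc2a1 had 318 FPKM in control 1 and 213 in Chd1-/- 1, and 452 and 450 FPKM in set 2. It was at 67.0% of control in set 1 and 99.6% in set 2, and did not pass (limma adjusted p = 0.239). The Slc2a1 share of the pair's summed FPKM, which does not depend on library scaling, was 41.9% in control 1 and 46.3% in Chd1-/- 1, and 55.1% in control 2 and 63.9% in Chd1-/- 2. The share was higher without Chd1 within each set, by 4.40 and 8.76 percentage points. The difference between the control libraries, 41.9% against 55.1%, was larger than either.

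Hexokinases trap glucose by phosphorylation. Hk2, the inducible form, made up 93.5% to 96.1% of the hexokinase FPKM in all 4 libraries. It had 86.2 FPKM in control 1 and 56.7 in Chd1-/- 1, and 86.5 in control 2 and 61.3 in Chd1-/- 2. The controls were nearly equal and Hk2 fell by 0.55 on the log2 scale (limma SE 0.17, adjusted p = 0.0267). Hk1, the ubiquitous form, was low, at 6.02 FPKM in control 1, 2.31 in Chd1-/- 1, 3.91 in control 2 and 2.64 in Chd1-/- 2. Its log2 ratios of -1.34 and -0.55 did not pass (limma adjusted p = 0.110). Glucose phosphate isomerase Gpi1, which makes fructose 6-phosphate, stood at 80.8% and 78.3% of control in the sets, without passing (limma adjusted p = 0.180).

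Phosphofructokinase commits sugar to glycolysis, and its liver, muscle and platelet subunits had different ratios. Pfkp, the platelet subunit, had 45.5 FPKM in control 1 and 19.4 in Chd1-/- 1, and 16.6 in control 2 and 11.5 in Chd1-/- 2. It fell by 0.88 (limma SE 0.22, adjusted p = 0.0027), more in set 1, and control 2 lay below Chd1-/- 1. In fits without the block, its log2 fold change was -0.16 without control 1, -1.60 without control 2 and -0.50 without Chd1-/- 2. Pfkl, the liver subunit and the most abundant, stood at 66.4 and 70.2 FPKM in set 1 and at 94.9 and 98.8 FPKM in set 2, control first. Pfkm, the muscle subunit, stood at 15.9 and 19.6 FPKM in set 1 and at 21.1 FPKM in both libraries of set 2. Neither passed (limma adjusted p = 0.778 and 0.616). Pfkl made up 51.9% of the subunits' FPKM in control 1 and 64.3% in Chd1-/- 1, and 71.5% in control 2 and 75.2% in Chd1-/- 2. The Pfkp share was 35.6% and 17.8% in set 1 and 12.6% and 8.72% in set 2. On the log2 scale the ratio of Pfkp minus that of Pfkl was -1.31 in set 1 and -0.59 in set 2 (mean -0.95 ± 0.50, SD, n = 2), described without a test.

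Pfkfb3 and Pfkfb4 make fructose 2,6-bisphosphate, an activator of phosphofructokinase. Pfkfb3 was low, at 2.40 FPKM in control 1, 0.860 in Chd1-/- 1, 1.24 in control 2 and 1.67 in Chd1-/- 2. It was lower in set 1 and higher in set 2 (limma adjusted p = 0.571). Pfkfb4 ranged from 0.385 to 1.05 FPKM.

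**Figure D2:**
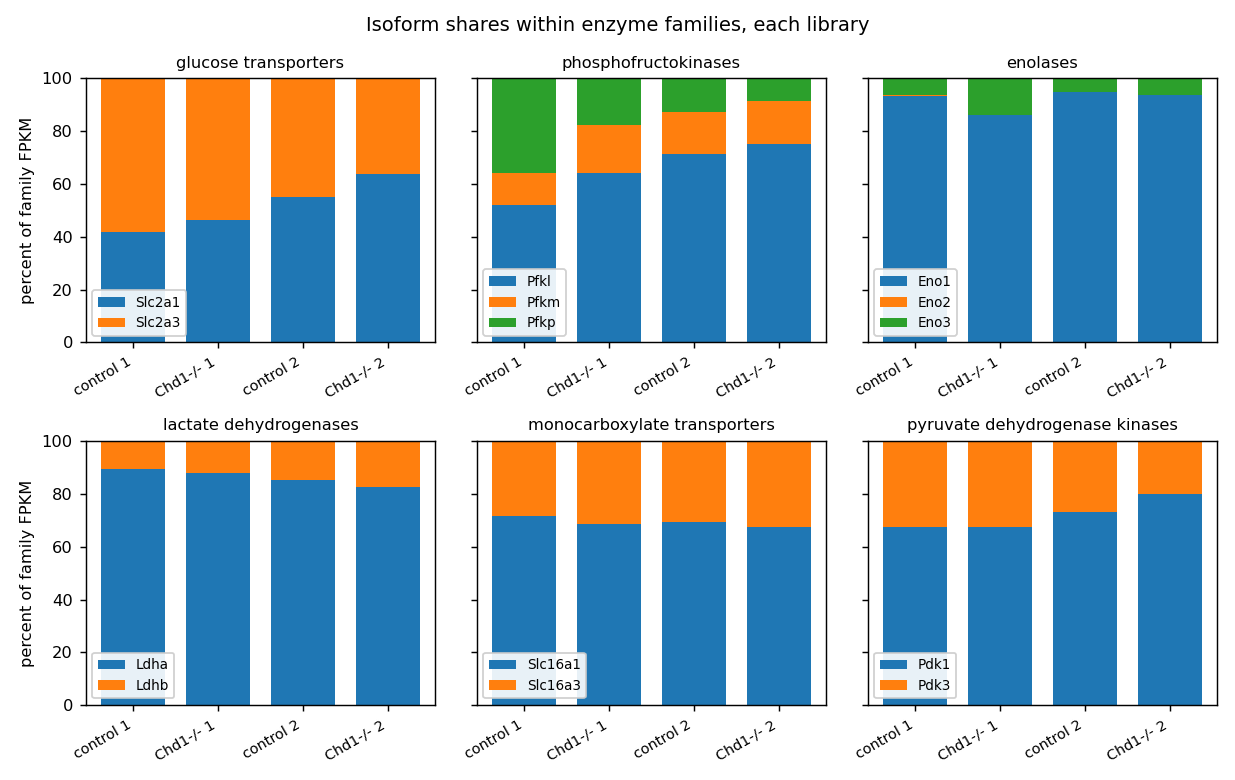
Each bar is 1 library, and the colours give each isoform's percent of the summed FPKM of its family. The Slc2a1 and Pfkl shares are higher in Chd1-/- than in control within each set, and Ldha and Slc16a1 shares are lower by 1.55 to 3.08 percentage points.

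Aldolase splits fructose 1,6-bisphosphate. Aldoa, the main form with at least 98.8% of aldolase FPKM in every library, had 1073 FPKM in control 1 and 750 in Chd1-/- 1, and 1284 in control 2 and 901 in Chd1-/- 2. Its log2 ratios were -0.52 and -0.51, but limma did not call it (adjusted p = 0.0625), the member closest to the threshold on that side. Ldha was closest on the other (adjusted p = 0.0382). Aldoc, known as the brain form, had 10.9 FPKM in control 1 and 4.17 in Chd1-/- 1, and 16.2 in control 2 and 8.19 in Chd1-/- 2. It fell by 1.17 (limma SE 0.28, adjusted p = 0.0020), and both Chd1-/- values lay below both controls. Without Chd1-/- 1 and the block its log2 fold change was -0.69. Tpi1, which interconverts the triose phosphates, had 384 FPKM in control 1 and 420 in Chd1-/- 1, and 590 in control 2 and 538 in Chd1-/- 2. It moved in opposite directions in the sets (limma adjusted p = 0.997).

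The payoff phase, in which ATP and NADH are recovered, held 3 of the genes that fell, among 6 tested. Beside this stand 9.8% of all tested genes called lower, and 19.8% of those with a mean of at least 100 FPKM. Gapdh, the enzyme that makes NADH and a common reference gene, had 1682 FPKM in control 1 and 1097 in Chd1-/- 1, and 1567 in control 2 and 1004 in Chd1-/- 2. It fell by 0.63 (limma SE 0.20, adjusted p = 0.0262), and stood at 65.2% and 64.1% of control. Pgk1, which makes the first ATP, had 595 FPKM in control 1 and 478 in Chd1-/- 1, and 824 in control 2 and 484 in Chd1-/- 2. It fell by 0.54 (adjusted p = 0.0350), more in set 2. Eno1, the ubiquitous enolase, had 587 FPKM in control 1 and 342 in Chd1-/- 1, and 577 in control 2 and 450 in Chd1-/- 2. It fell by 0.57 (adjusted p = 0.0237), more in set 1. In these 3 genes both Chd1-/- values lay below both controls. Without the block, the log2 fold change of Pgk1 was -0.31 when control 2 was left out, and that of Eno1 was -0.37 when Chd1-/- 1 was.

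The mutase Pgam1 stood at 72.7% and 72.2% of control without passing (limma adjusted p = 0.0759). Pkm, the pyruvate kinase and the most abundant member, had 2396 FPKM in control 1 and 1805 in Chd1-/- 1, and 1999 in control 2 and 1948 in Chd1-/- 2. It was lower mainly in set 1 (adjusted p = 0.456). By rank among named loci Pkm was between 11 and 28 in the 4 libraries. Eno3, the muscle enolase, stood at 40.1 and 55.4 FPKM in set 1 and at 31.4 and 29.3 FPKM in set 2, control first, and did not pass (adjusted p = 0.484). Eno2, the neuronal form, stayed between 0.239 and 1.02 FPKM. The Eno3 share of enolase FPKM was 6.39% and 13.9% in set 1 but 5.15% and 6.11% in set 2. Many of these enzymes, Gapdh above all, have processed pseudogenes that can share reads, so single values are uncertain.

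**Figure D3:**
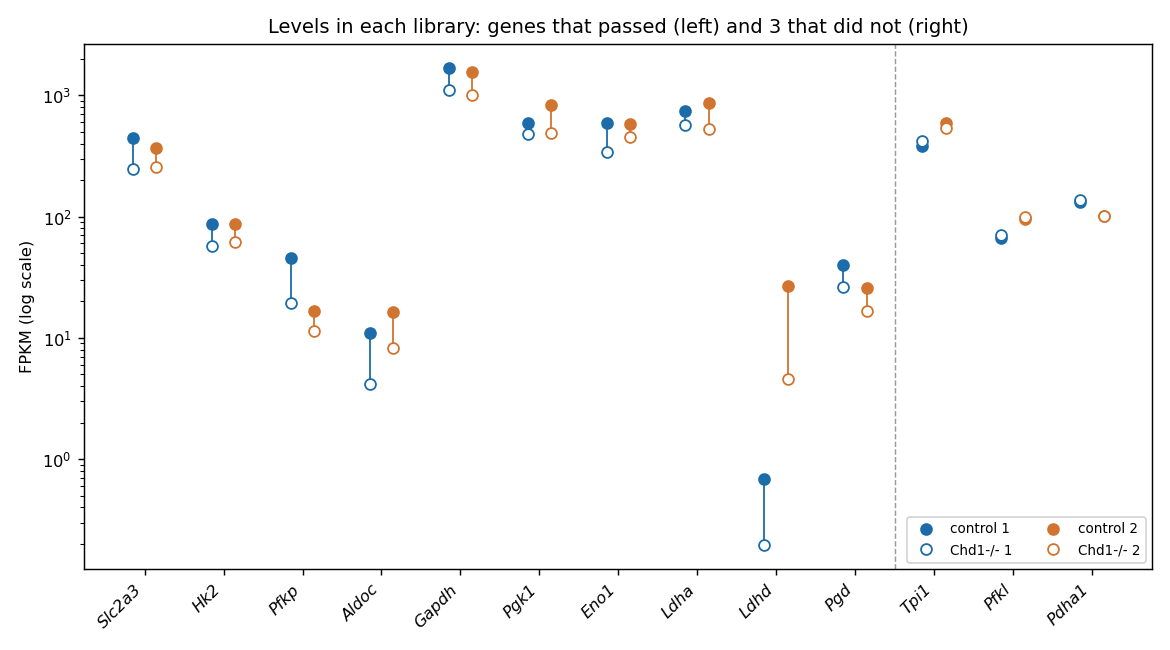
The vertical axis is FPKM on a log scale, with filled circles for control and open circles for Chd1-/-, set 1 left and set 2 right within each gene. The 10 genes left of the dashed line passed limma's test, and Tpi1, Pfkl and Pdha1 on the right did not. Ldhd differs most between the 2 control libraries (39.0-fold), and Pfkp was 0.366 times as high in control 2 as in control 1.

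Ldha, the main subunit of the dehydrogenase that makes lactate, had 747 FPKM in control 1 and 573 in Chd1-/- 1, and 858 in control 2 and 528 in Chd1-/- 2. It fell by 0.54 (limma SE 0.18, adjusted p = 0.0382), more in set 2. Ldhb, the subunit that favours lactate use, had 88.8 FPKM in control 1 and 79.4 in Chd1-/- 1, and 146 in control 2 and 112 in Chd1-/- 2, and did not pass (adjusted p = 0.261). The Ldha share of the pair was 89.4% and 87.8% in set 1 and 85.4% and 82.5% in set 2, control first. The log2 ratio of Ldha minus that of Ldhb was -0.27 ± 0.07 (SD, n = 2), described without a test.

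The lactate carriers Slc16a1 (MCT1) and Slc16a3 (MCT4) were lower in both sets, without passing. Slc16a1 stood at 78.0% and 71.7% of control (limma adjusted p = 0.102). Slc16a3 stood at 90.4% and 78.5% (adjusted p = 0.381). Without Ldhd, the lactate genes summed to 924 FPKM in control 1 and 725 in Chd1-/- 1, and to 1123 in control 2 and 727 in Chd1-/- 2.

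In the oxidative part of the pentose phosphate pathway, which makes NADPH, Pgd (6-phosphogluconate dehydrogenase) had 39.5 FPKM in control 1 and 26.2 in Chd1-/- 1, and 25.8 in control 2 and 16.7 in Chd1-/- 2. It fell by 0.61 (limma SE 0.20, adjusted p = 0.0362), to 66.3% and 64.9% of control, although control 2 lay below Chd1-/- 1. In fits without the block, its log2 fold change was -0.30 without control 1, -0.28 without Chd1-/- 2, -0.93 without Chd1-/- 1 and -0.91 without control 2. G6pdx, the first enzyme of the pathway, stood at 70.0% and 76.7% of control (limma adjusted p = 0.173). The lactonase Pgls stood at 100.2% and 81.6% (adjusted p = 0.617).

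In the non-oxidative part, which makes ribose from glycolytic sugars, 0 of 4 members passed, beside 9.8% of all tested genes called lower. All 4 had a lower ratio in set 2 than in set 1. Transketolase Tkt, with 118 and 123 FPKM in set 1 and 151 and 128 FPKM in set 2, control first, had limma adjusted p = 0.701. Transaldolase Taldo1 stood at 102.3% and 75.4% of control (adjusted p = 0.430). The epimerase Rpe stood at 97.4% and 60.5% (adjusted p = 0.240). The isomerase Rpia stood at 85.5% and 46.3% (adjusted p = 0.0964). Their sum was 102.1% of control in set 1 and 77.0% in set 2, so the sets differ on whether this branch was lower.

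At the entry to the citric acid cycle 0 of 5 members passed, beside 9.8% of all tested genes called lower. Pdha1, the E1 alpha subunit of pyruvate dehydrogenase, stood at 133 and 137 FPKM in set 1 and at 101 and 102 FPKM in set 2, control first. Pdhb, its E1 beta partner, had 299 FPKM in control 1 and 270 in Chd1-/- 1, and 220 in control 2 and 134 in Chd1-/- 2. Limma's adjusted p was 0.918 for Pdha1 and 0.0775 for Pdhb. Dlat, the E2 subunit, stood at 87.4% and 87.9% of control. Pdk1 and Pdk3 encode kinases that inhibit the complex. Pdk1 stood at 89.2% and 86.2% of control (adjusted p = 0.452), and Pdk3 at 89.2% and 58.1% (adjusted p = 0.128).

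**Figure D4:**
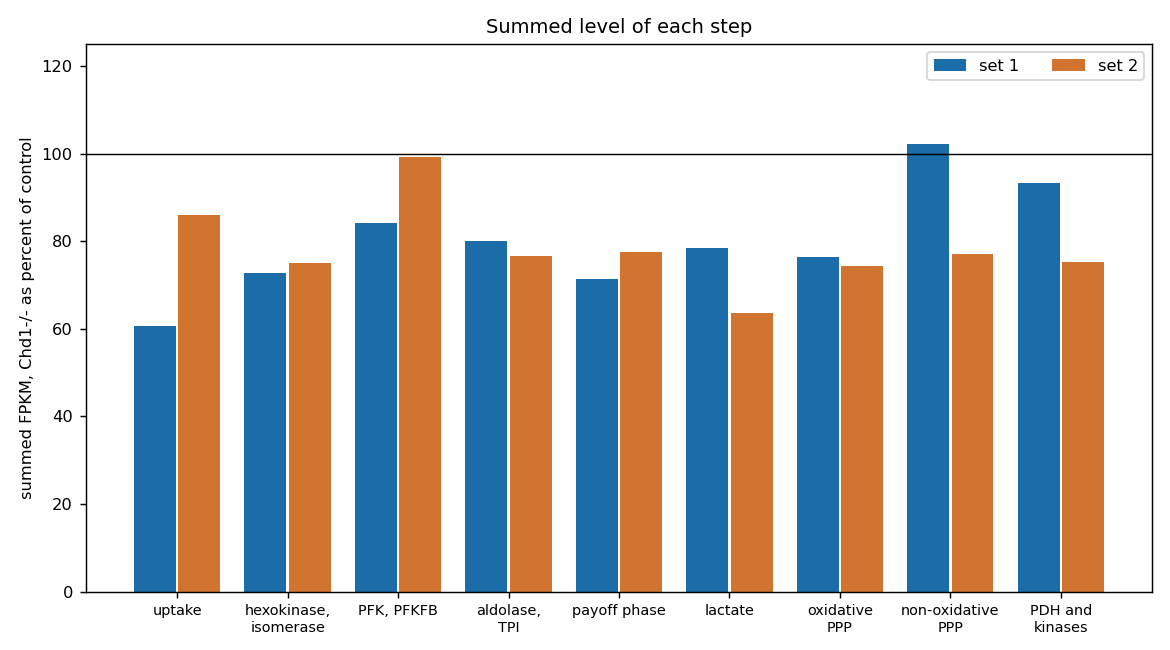
Bars give the summed FPKM of each step in Chd1-/- as percent of the control of the same set (abbreviations as in the plot of log2 ratios). The hexokinase step (72.8% and 74.9%), the payoff phase (71.4% and 77.6%) and the oxidative branch (76.4% and 74.3%) differ by at most 6.14 percentage points between the sets. The aldolase and TPI step (80.0% and 76.6%) lies within the same limit. Glucose uptake (60.6% and 86.0%), phosphofructokinases (84.2% and 99.2%), lactate genes (78.4% and 63.7%, Ldhd included), the non-oxidative branch (102.1% and 77.0%) and pyruvate dehydrogenase (93.3% and 75.2%) differ more.

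The second comparison asked which members changed more or less than the median gene, after each set's median log2 ratio was subtracted. None of the 35 passed limma's test in either direction, against 0.214% of all genes lower and 0.146% higher. The lowest adjusted p was 0.0976 for Ldhd, and 0.349 for Aldoc without it. At an unadjusted p under 0.05 in limma's test there were 6 of the 35 members, beside 645 of all 10261 tested genes. They were 3 lower members (Pfkp, Aldoc and Ldhd) and 3 higher ones (Pfkl, Pfkm and Eno3). Their relative log2 changes were -0.49, -0.77, -1.57, 0.46, 0.55 and 0.58. The members' median log2 ratio was -0.32 in set 1, above the -0.46 of all genes, and -0.41 in set 2, below the -0.33 of all genes. In all, 11 of the 35 members lay below both medians and 10 above both, against 24.6% of all tested genes on each side. For the 15 members at 100 FPKM and above, the medians were -0.38 and -0.41, against -0.20 and -0.39 for all genes at that level.

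Other genes of carbohydrate metabolism, from a list of 72 symbols of which 39 were tested, gave 2 that fell and 0 that rose. The list's medians were -0.38 and -0.25. Pck2, the mitochondrial enzyme that makes phosphoenolpyruvate, had 11.9 FPKM in control 1 and 5.73 in Chd1-/- 1, and 11.6 in control 2 and 5.33 in Chd1-/- 2 (log2 fold change -1.08, limma adjusted p = 0.0065). Adpgk, an ADP-dependent glucokinase, stood at 16.9 and 12.6 FPKM in set 1 and at 31.1 and 17.3 FPKM in set 2 (log2 fold change -0.63, adjusted p = 0.0450). Pgm1, a phosphoglucomutase, had log2 ratios of -1.10 and -0.63 without passing (adjusted p = 0.0621). Bsg, the chaperone of the lactate carriers, stood at 239 and 218 FPKM in set 1 and at 217 and 201 FPKM in set 2. It was chosen after its values were seen.

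Of 16 tested regulators of the pathway 2 fell and 0 rose, with medians of -0.57 and -0.49. Mycn, a Myc family member whose level exceeded that of Myc (3.95 to 5.79 FPKM), had 98.0 FPKM in control 1 and 64.8 in Chd1-/- 1, and 90.6 in control 2 and 58.0 in Chd1-/- 2 (log2 fold change -0.62, limma adjusted p = 0.0110). Its dimer partner Max stood at 24.4 and 15.7 FPKM in set 1 and at 23.1 and 14.7 FPKM in set 2 (-0.64, adjusted p = 0.0404). Prkab1, an AMP-activated kinase subunit, had log2 ratios of -1.26 and -0.60 (adjusted p = 0.0650). Hif1a, chosen after its values were seen, stood at 38.6 and 34.2 FPKM in set 1 and at 37.2 and 33.0 FPKM in set 2 (adjusted p = 0.511).

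Of 16 tested HIF-1 targets outside glycolysis 2 fell and 0 rose, with medians of -0.55 and -0.41. Hmox1, heme oxygenase, had 59.2 FPKM in control 1 and 27.6 in Chd1-/- 1, and 36.3 in control 2 and 22.5 in Chd1-/- 2 (log2 fold change -0.90, limma adjusted p = 0.00043). Kdm3a, a histone demethylase, stood at 55.4 and 34.3 FPKM in set 1 and at 33.6 and 21.3 FPKM in set 2 (-0.67, adjusted p = 0.0130). Ankrd37 had log2 ratios of -1.02 and -0.40 without passing (adjusted p = 0.110). The shares called, 2 of 39, 2 of 16 and 2 of 16, stand beside 9.8% of all tested genes.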

How the data were processed

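RNA-seq values of 4 libraries were analysed, 1 control and 1 Chd1-/- library in each of 2 sets. The deposited values were taken as FPKM. The unit was inferred from the values and from the tools, which are Cufflinks 2.2.0, Cuffdiff, TopHat and TopHat2 2.0.10 with build mm9 per the submitters' processing notes. The annotation and the use of the ERCC transcripts are not stated there. The deposited ratio of Chd1-/- over control equalled the quotient of the value columns to within 4.97e-06. The lowest value was 0.100, and read depth is unknown.

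Genes were joined across tables by symbol, leaving out symbols shared by several loci of a table. Tables may have been scaled separately, so ratios were taken within a set, and levels set across sets rest on the authors' scaling. Values were compared as log2(FPKM + 0.1), which understates the change of low genes, with limma 3.58.1 in R 4.3.3 (eBayes with a variance trend, prior degrees of freedom Inf), two-sided, with set as a block. Across genes, the departures of a set's libraries from the group means had r = 0.483.

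Members and lists were chosen with earlier results of these data known. All members are named. Of each other list up to 3 genes are named, called genes first, then those of largest mean change, with a mean of at least 5 FPKM and 1 sign in both sets. The cell type markers, Bsg and Hif1a were named outside this rule. Locus strands came from GENCODE M21 and promoters from RefSeq (GRCm38.p6), and the files give no coordinates. Alternatives were other pseudocounts, filters, variance priors and centrings, no block, loci sharing a symbol summed, and leaving out a library or set.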

Additional observations from a re-analysis of the deposited data

How the results depend on the processing

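The count of 10 members that fell was 10 with a pseudocount of 1, with none, and with loci sharing a symbol summed, and in each case these were the same 10 genes. It was 7 with no filter on low values (Gapdh, Ldha and Pgk1 were lost). It was 4 with a mean of at least 5 FPKM (Slc2a3, Pfkp, Aldoc and Gapdh), 0 with a common prior variance, and 0 without the replicate block, where 10 were lower at an unadjusted p under 0.05. Leaving out each library in turn, which also removes the block, gave 0 in each of the 4 fits by limma, with 5 to 6 at an unadjusted p under 0.05. The lone sample of a group is then assumed to vary like the other group. With Ldhd left out, an alternative chosen after seeing the data, 9 remained. No member rose in any fit. In the comparison with the median gene 0 members passed under every alternative run, including centring on genes of similar level (5 lower and 5 higher at an unadjusted p under 0.05). The mean over the sets of the members' median log2 ratio was -0.36. With replicate 1 left out, only the set 2 median of -0.41 remained, and with replicate 2 left out, only the set 1 median of -0.32.

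Leaving out a library or a set turned the direction of 16 members, of which only Ldhd was called, and their log2 changes then ranged from -0.83 to 0.25 for Slc2a1, from -0.19 to 0.33 for Pfkl, from -0.0542 to 0.36 for Pfkm, from -1.38 to 0.40 for Pfkfb3, from -0.31 to 0.31 for Tpi1, from -0.27 to 0.64 for Eno3, from -0.63 to 0.0877 for Ldhb, from -4.52 to 0.58 for Ldhd, from -0.50 to 0.0106 for Slc16a3, from -0.30 to 0.0125 for Pgls, from -0.27 to 0.0846 for Tkt, from -0.41 to 0.0326 for Taldo1, from -0.19 to 0.24 for Pdha1, from -0.94 to 0.0758 for Pdhb, from -0.41 to 0.0299 for Dlat and from -0.62 to 0.24 for Pdk1. Fits that leave out a library have no block, so differences in level between the sets enter them. With a whole set left out, only the 7 members that moved in opposite directions in the sets turned. The 6 called members whose value moved by over 1.5 times when a library or set was left out were Pfkp, Aldoc, Pgk1, Eno1, Pgd and Ldhd. No read depth could be set against these values.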
